A study of Homo sapiens with 12 samples.

Results

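The matrix metalloproteinases (MMPs) and their tissue inhibitors (TIMPs) were followed in PDAC (pancreatic ductal adenocarcinoma) cell lines in which FAK, the focal adhesion kinase, was depleted with hairpins. Members were taken by name, as every probe whose target in the deposited array table is MMP1, MMP2, MMP7, MMP9, MMP10, MMP13, MMP14, TIMP1, TIMP2 or TIMP3. These are 10 of 34599 gene names and 13 of 47228 probes, and 8 of the 13 probes, which cover MMP1, MMP7, MMP10, MMP14, TIMP1 and TIMP2, entered the fit. The genes were chosen by name with array signals of these samples already known, among them the fall of MMP1 with the FAK hairpins, so their differences between a FAK hairpin and the control hairpin are given below as a description with no test.

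MIA PaCa-2 and Capan-1 are established human PDAC cell lines. All 12 samples were stable, puromycin-resistant lines that carried a tet-on PLKO.1 hairpin vector, were kept under puromycin (3.5 ug/ml in MIA PaCa-2, 1.5 ug/ml in Capan-1), and received 50 ng/ml doxycycline for 96 hours, the controls included. The hairpin was a scrambled control (shCtrl) or was directed against FAK (sh1209 or sh1319, the latter written shFAK1319 in the Capan-1 labels and taken as the same hairpin). Each of the 6 groups had 2 arrays. Whether these 2 were grown as separate cultures is given neither in the labels nor in the study's methods, so p-values measure only the spread between these samples, which may be technical.

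MMPs are zinc-dependent endopeptidases that are made as inactive proenzymes and cleave collagens, laminins, fibronectin and other matrix proteins after their propeptide is removed. TIMPs bind the active site of MMPs and block it, and TIMP2 also takes part in the activation of pro-MMP2 on the cell surface by MMP14. In pancreatic tumours much of the MMP2, MMP9 and TIMP made is known to come from stromal and inflammatory cells, while MMP7 is known as an epithelial product.

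MMP7, MMP10, MMP1 and MMP13 lie in a run of MMP genes on chromosome 11. In the RefSeq table of assembly GRCh38.p14 the order of the protein-coding genes there is MMP7, MMP20, MMP27, MMP8, MMP10, MMP1, MMP3, MMP12 and MMP13, so that MMP10, MMP1 and MMP3 are neighbours. RefSeq promoter sequences (GRCh38.p14, 250 bases before to 50 bases after the start) were at hand for 5 of the 10 members, MMP7, MMP10, MMP14, TIMP1 and TIMP3. They were searched on both strands for the AP-1 site TGACTCA, which reads TGAGTCA on the opposite strand, for the core of ETS (PEA3) sites, AGGAAG, which reads CTTCCT, and for the TATA box, TATAAA, which reads TTTATA, since AP-1 and ETS factors are known to bind MMP promoters. Windows of 30 bases around matches in the genes that differed most between groups are shown 5′ to 3′ on the gene's strand, with the match in capitals.
MMP7, AP-1, chr11:102530796-102530825, minus strand: aaacactcaaaTGAGTCAcctatttccaca
MMP7, TATA, chr11:102530760-102530789, minus strand: gctgagaagctaTATAAAtttctgcagtca
MMP10, TATA, chr11:102780642-102780671, minus strand: gcattgtctctgTATAAAagaaaggccact
TIMP1, ETS, chrX:47582337-47582366, plus strand: agtaatgcatccAGGAAGcctggaggcctg
The AP-1 match of MMP7 lay at -67 to -61 from the start and its TATA match at -30 to -25, while the TATA match of MMP10 lay at -31 to -26. The ETS match of TIMP1 lay at -87 to -82, and MMP7 held 2 further ETS matches, at -169 to -164 and at -145 to -140. None of these matches overlapped another. Over 35116 RefSeq promoters of this length, 4.95% held the AP-1 letters, 33.6% the ETS letters and 11.5% the TATA letters. The MMP10 window held no AP-1 match of these letters, and those of MMP14 and TIMP3 held none of the 3 motifs.

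PTK2 encodes FAK, and probe 450253 had a normalized log2 intensity of 9.45 and 9.46 with shCtrl in MIA PaCa-2, 7.28 and 7.14 with sh1209, and 6.92 and 7.03 with sh1319. In Capan-1 it was 10.35 and 10.17 with shCtrl, 9.66 and 9.63 with sh1209, and 8.48 and 8.49 with sh1319. The FAK hairpin arrays lay below the shCtrl arrays of their line without overlap. The signal fell to 21.1% of shCtrl with sh1209 (limma, adjusted p = 1.5e-07) and to 17.9% with sh1319 (5.2e-08) in MIA PaCa-2, and to 65.4% (0.0036) and 29.2% (5.9e-06) in Capan-1. The sh1209 arrays of Capan-1 were 1.16 above its sh1319 arrays on the log2 scale (limma, adjusted p = 6.2e-05). Under median scaling the Capan-1 difference with sh1209 was -0.42 and lost its call (adjusted p = 0.23, against 5.5e-06 to 0.23 over its alternatives). The other PTK2 probe, 2680750, was dim, between 4.54 and 6.03, and passed the test in none of these 4 comparisons, with adjusted p of 0.25, 0.25, 0.08 and 0.09.

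Median deposited intensities of the arrays ran from 87.7 to 97, and 16259 to 19814 of 47228 probes were detected at a detection p under 0.05. The number of arrays limits the precision. All 8 epithelial marker genes, CDH1 and EPCAM among them, were detected on every Capan-1 array, against 2 of 8 in MIA PaCa-2, where CDH1 was on none. The fibroblast markers FAP and PDGFRB were detected on no array, DCN on 1 of 12, and LUM on 2, both of Capan-1. In MIA PaCa-2 the mean of ACTA2 was 4.34 with shCtrl, 5.74 with sh1209 and 7.16 with sh1319, and the summed signal of the fibroblast list was 157 to 161, 191 to 192 and 277 to 281 in these groups. The summed signal of the epithelial list in MIA PaCa-2 was 2010 to 2070 with shCtrl, 1510 to 1620 with sh1209 and 1020 to 1120 with sh1319. In Capan-1 the fibroblast sum was 212 to 220, 236 to 238 and 253 to 254, and the epithelial sum 18500 to 18900, 19100 to 19300 and 14700 to 16700, in the same order. The mesenchymal list (VIM, CDH2 and ZEB1) summed to 150 to 151, 198 to 202 and 254 to 262 in Capan-1, and to 16000 to 17300, 17000 to 18500 and 15500 to 16500 in MIA PaCa-2. ZEB1 was undetected in both lines. CDH2 was detected on all 6 Capan-1 arrays, with means of 5.93, 6.68 and 7.22, and on no MIA PaCa-2 array, so the MIA PaCa-2 sums were VIM signal. The endothelial sum in Capan-1 was 60.4 to 67.6, 87.9 to 88.4 and 68.1 to 70.3, and 57.1 to 66.3 over MIA PaCa-2. CDH5 was undetected, PECAM1 was detected on 5 Capan-1 and 2 MIA PaCa-2 arrays, and VWF on 2 Capan-1 arrays. In Capan-1 the means were 4.73, 5.30 and 4.95 for PECAM1 and 4.18, 4.91 and 4.31 for VWF, with shCtrl, sh1209 and sh1319. The leukocyte sum was 232 to 288 over all arrays. Of the leukocyte list, a dim CD79A probe was detected on 6 MIA PaCa-2 and 3 Capan-1 arrays and a CD14 probe on 5 and 1, while CD3D was detected on none. The part of these markers in the values below was not tested.

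The members split by cell line before any hairpin against FAK was considered. MMP1 and MMP10 were detected with shCtrl in MIA PaCa-2 and not in Capan-1, MMP7 was detected on all 6 Capan-1 arrays and on no MIA PaCa-2 array, and TIMP1 and TIMP2 were detected in both lines. MMP9, MMP13 and TIMP3 were detected on 0 of 12 arrays, MMP2 and the TIMP2 probe 5420743 each on 1, and MMP14 on 2. Fewer cells that express a gene and less RNA in each cell cannot be told apart in bulk RNA.

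**Figure D1:**
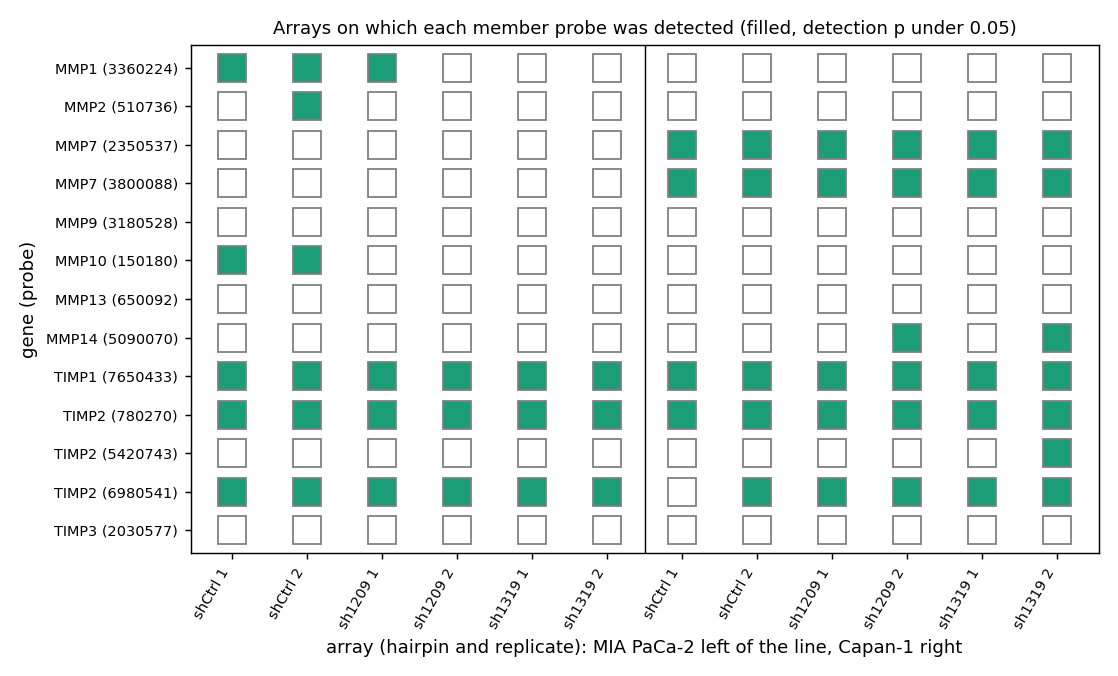
Detection of the 13 member probes (rows) on the 12 arrays (columns, MIA PaCa-2 left and Capan-1 right of the line). Filled squares mark a detection p under 0.05. The MMP7 rows fill the Capan-1 side only, MMP1 and MMP10 only MIA PaCa-2, and the TIMP1 row all 12 arrays.

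MMP1, the interstitial collagenase that cuts fibrillar collagens, was the member with the widest range in MIA PaCa-2. Probe 3360224 had a deposited intensity of 745.6 and 791.3 with shCtrl, 92.0 and 86.5 with sh1209, and 92.2 and 86.0 with sh1319. On the normalized log2 scale these were 9.40 and 9.62 with shCtrl, 4.70 and 4.24 with sh1209, and 4.45 and 4.20 with sh1319. Both shCtrl arrays were far above the 4 FAK hairpin arrays, of which only sh1209 replicate 1 was detected. The fitted log2 difference from shCtrl was -5.04 (SE 0.16) with sh1209, whose mean of 4.47 was near background, and -5.18 (SE 0.16) with sh1319. Since neither sh1319 array was detected, that change is given as a bound: MMP1 was at least 28.0-fold lower. Bounds set the mean of the brighter group against the lowest signal among detected probes of each array of the undetected group, or the probe's own signal where that was higher. Without background correction both differences were smaller, -3.13 and -3.20.

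In Capan-1 MMP1 stayed at background. Its 6 arrays lay between 4.31 and 4.4, none was detected, and the differences were 0.00 with sh1209 (95% interval -0.35 to 0.34) and -0.05 with sh1319 (-0.39 to 0.30).

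MMP10 (stromelysin 2), the neighbour of MMP1 and an enzyme that cleaves laminin, proteoglycans and other proenzymes, was highest in the same group. Probe 150180 was at 6.04 and 5.98 with shCtrl in MIA PaCa-2, 4.26 and 4.20 with sh1209, and 4.21 and 4.17 with sh1319. The shCtrl arrays, with deposited intensities of 128.1 and 124.0, were the only ones of the 12 on which it was detected, and no hairpin array overlapped them. The differences were -1.78 (SE 0.12) and -1.82 (SE 0.12), which as bounds are at least 2.54-fold lower for sh1209 and, for sh1319, at least 2.47-fold. Without background correction they were -0.70 and -0.75. In Capan-1 the 6 arrays lay between 4.20 and 4.42 and both differences were -0.08 (SE 0.12). The interval reached from -0.33 to 0.18 with sh1209 and from -0.34 to 0.17 with sh1319.

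Of the other genes in the chromosome 11 run, MMP3 (stromelysin 1) was detected on 2 arrays, both MIA PaCa-2 with shCtrl, at a mean of 4.88. Its mean was 4.60 with sh1209 and 4.47 with sh1319, where it was undetected and at least 1.13-fold lower. No p is given, since MMP3 entered the fit only through the 2 shCtrl arrays, and the fitted difference ranged from -0.54 to -0.13 over its alternatives. MMP20, MMP27, MMP8 and MMP12 were detected on no array, like MMP13. MMP1, MMP10 and MMP3, which are neighbours, each had their highest mean in MIA PaCa-2 with shCtrl, while MMP7, at the end of the run, was at background there.

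MMP7 (matrilysin), a small MMP without the hemopexin domain, was detected in Capan-1 alone, on both of its probes. Probe 2350537 was at 10.40 and 10.29 with shCtrl, 11.75 and 11.53 with sh1209, and 11.35 and 11.31 with sh1319. Probe 3800088 was at 10.76 and 10.55 with shCtrl, 12.03 and 12 with sh1209, and 11.65 and 11.61 with sh1319. On either probe each FAK hairpin array was above both shCtrl arrays, and each sh1209 array was above both sh1319 arrays.

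The log2 difference of MMP7 from shCtrl in Capan-1 was 1.30 (SE 0.12) on probe 2350537 and 1.36 (SE 0.12) on probe 3800088 with sh1209, or 246% and 256% of shCtrl. With sh1319 it was 0.98 and 0.97 (SE 0.12 each), or 198% and 196%. In MIA PaCa-2 the 6 arrays lay between 4.20 and 4.35 on probe 2350537 and between 4.15 and 4.28 on probe 3800088, all undetected, and the 4 differences there lay between -0.06 and 0.04. Of the 5 promoter windows searched, that of MMP7 was the one with the AP-1 letters printed above, and the promoters of the other 5 members, MMP1 among them, were not analysed here.

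**Figure D2:**
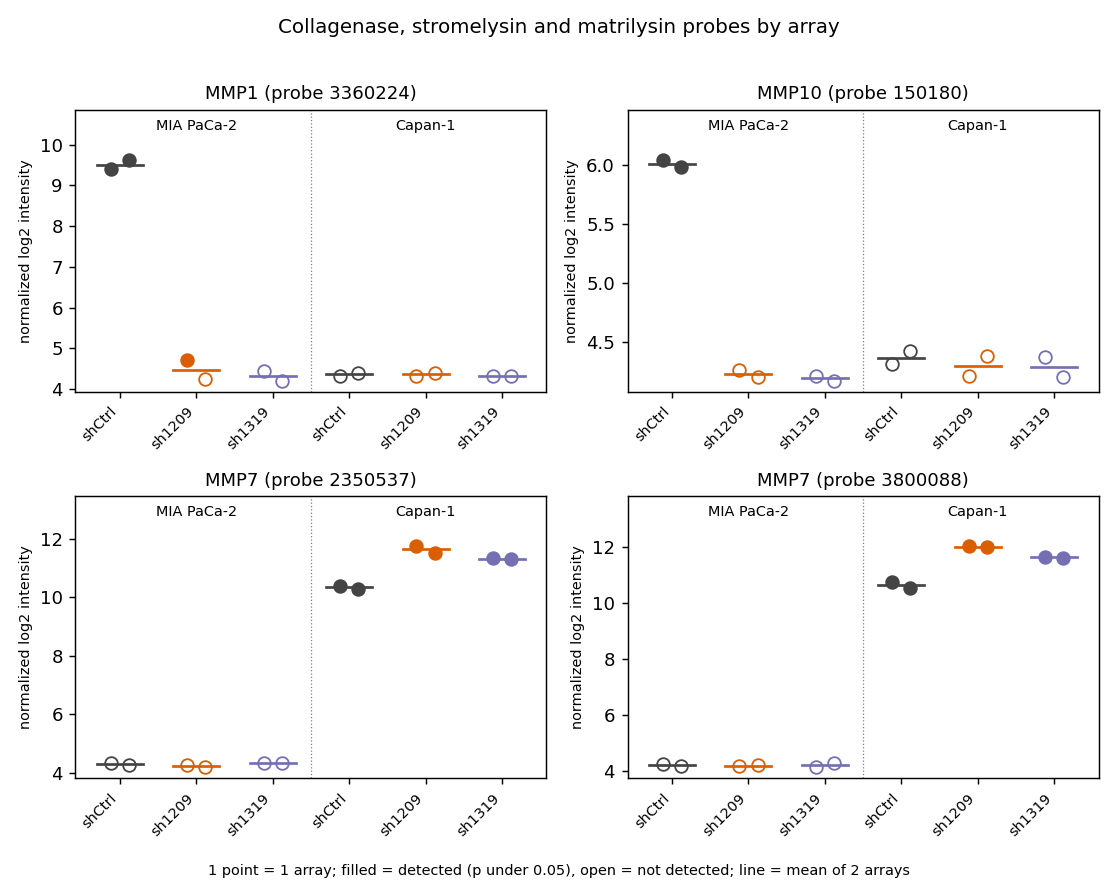
Normalized log2 intensity of MMP1, MMP10 and both MMP7 probes on each array (points, filled where detected) with the mean of the 2 arrays of a group (lines), in MIA PaCa-2 (left) and Capan-1 (right) by hairpin. MMP1 leaves the background only with shCtrl in MIA PaCa-2, at 9.40 and 9.62, apart from 1 sh1209 array at 4.70, and MMP7 only in Capan-1. Each vertical axis has its own range and does not start at 0.

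MMP14, the membrane-type MMP that activates pro-MMP2, hardly left the background. Probe 5090070 was detected on Capan-1 sh1209 replicate 2 (4.74) and Capan-1 sh1319 replicate 2 (5.0), while the first replicates of these groups were at 4.31 and 4.22. The differences in Capan-1 were 0.12 and 0.21 (SE 0.22), and without sh1319 replicate 2 the latter was -0.18, so its sign rests on that array. In MIA PaCa-2 all 6 arrays lay between 4.23 and 4.29.

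MMP2 (gelatinase A) was detected on MIA PaCa-2 shCtrl replicate 2 alone, at 4.81 and a deposited intensity of 99.0, with the other replicate at 4.36. MMP9 (gelatinase B) lay between 4.17 and 4.46, MMP13 (collagenase 3) between 4.18 and 4.57, and TIMP3, the TIMP that stays bound to the matrix, between 4.15 and 4.36. At these signals a difference between groups was not detectable, and these 4 genes were not tested.

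TIMP1, a secreted inhibitor of most MMPs, was detected on all 12 arrays. Probe 7650433 was at 11.77 and 11.96 with shCtrl in MIA PaCa-2, 12.43 and 12.35 with sh1209, and 11.77 and 11.70 with sh1319. In Capan-1 it was at 10.86 and 10.83, 10.75 and 10.81, and 10.69 and 10.58 in the same order. The 2 sh1209 arrays of MIA PaCa-2 were the highest of the 12, and those with sh1319 did not stand clear of shCtrl.

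The difference of TIMP1 from shCtrl in MIA PaCa-2 was 0.52 (SE 0.11) with sh1209 and -0.13 (SE 0.11) with sh1319. The former was 0.42 without shCtrl replicate 1, 0.48 without sh1209 replicate 1 and 0.43 under median scaling. In Capan-1 the differences were -0.06 (interval -0.31 to 0.19) and -0.21 (-0.46 to 0.04).

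TIMP2, which inhibits MMPs and assists MMP14 in the activation of pro-MMP2, has 3 probes, of which 2 were tested. Probe 780270 was at 9.80 and 9.57 with shCtrl in MIA PaCa-2, 9.56 and 9.47 with sh1209, and 8.57 and 8.72 with sh1319. In Capan-1 it was at 7.01 and 6.70 with shCtrl, 7.74 and 7.71 with sh1209, and 7.60 and 7.81 with sh1319. The sh1319 arrays were below all others in MIA PaCa-2, whereas all 4 FAK hairpin arrays were above both shCtrl arrays in Capan-1.

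The difference on probe 780270 in MIA PaCa-2 was -0.17 (SE 0.14) with sh1209 and -1.04 (SE 0.14) with sh1319, the latter 48.5% of shCtrl. In Capan-1 it was 0.87 and 0.85 (SE 0.14 each), or 183% and 180% of shCtrl. Without background correction the Capan-1 differences were 0.59 and 0.58.

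Probe 6980541 of TIMP2 was at 7.21 and 7.12 with shCtrl, 7.37 and 7.63 with sh1209, and 6.77 and 6.63 with sh1319 in MIA PaCa-2. In Capan-1 it was at 4.48 and 4.74, 4.97 and 5.06, and 4.79 and 5.18 in the same order. Its differences of -0.46 (SE 0.16) with sh1319 in MIA PaCa-2 and of 0.40 and 0.38 (SE 0.16) in Capan-1 have the sign of probe 780270. With sh1209 in MIA PaCa-2 the probes disagree in sign, at 0.34 against -0.17. The sh1319 difference on this probe lay between -0.53 and -0.29 over its alternatives. Probe 5420743 was detected on Capan-1 sh1319 replicate 2 alone and was not tested.

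**Figure D3:**
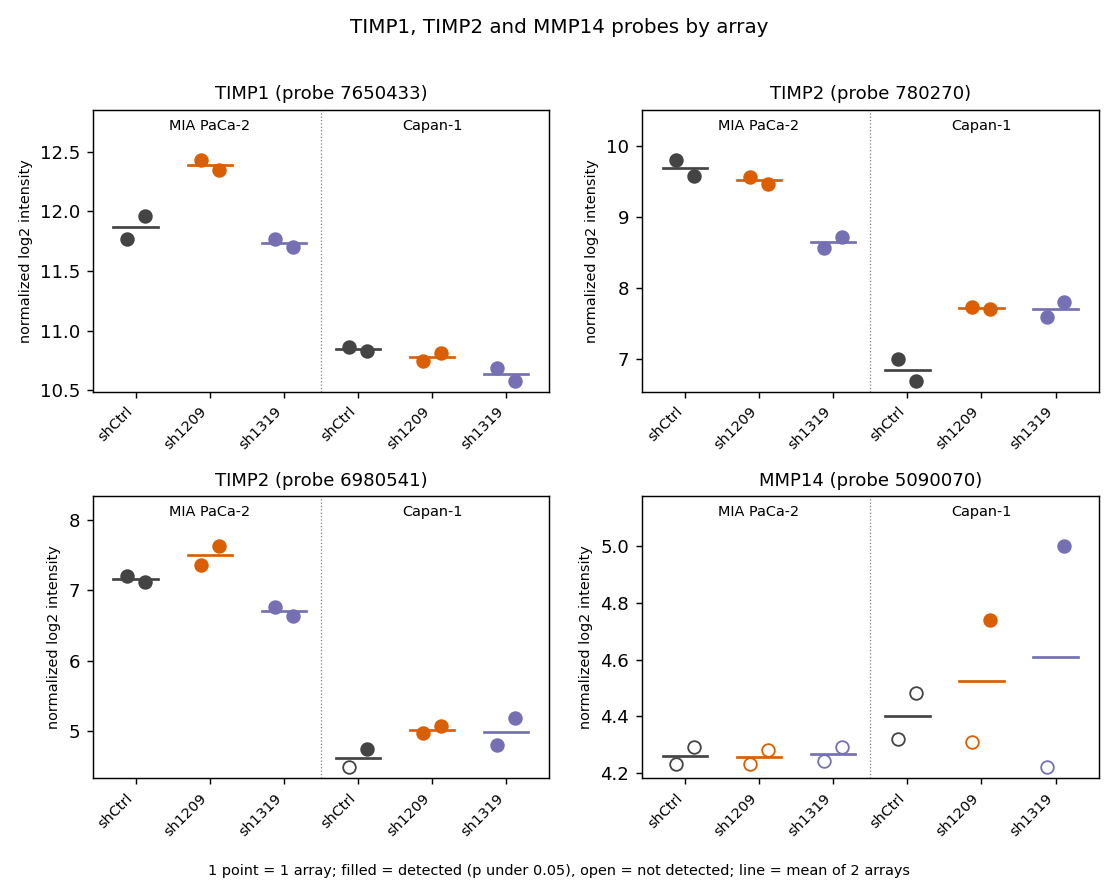
Normalized log2 intensity of TIMP1, of the 2 tested TIMP2 probes and of MMP14 on each array, drawn as for the MMPs (filled points detected, lines the mean of 2 arrays). On both TIMP2 probes the sh1319 arrays are lowest within MIA PaCa-2, at 8.57 and 8.72 on probe 780270, and the FAK hairpin arrays are above shCtrl in Capan-1. Each vertical axis has its own range and does not start at 0.

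Counted over the 8 tested probes, at a limma adjusted p under 0.05, 3 differed with sh1209 in MIA PaCa-2 (MMP1 and MMP10 lower, TIMP1 higher), beside 18% of all 24207 tested probes (9.05% higher, 8.99% lower). With sh1319 in MIA PaCa-2, 4 were lower (MMP1, MMP10 and both TIMP2 probes), beside 24.3% (12.2% higher, 12.1% lower). In Capan-1, 3 were higher with sh1209 (both MMP7 probes and TIMP2 probe 780270), beside 16.8% (8.14% higher, 8.69% lower), and these were also the 3 that were higher with sh1319, beside 13.7% (6.95% higher, 6.77% lower). Under median scaling, without shCtrl replicate 1 or without sh1209 replicate 1, TIMP1 is not in the first count, which is then 2, and TIMP2 probe 6980541 is not in the second in 14 of 19 alternatives. These counts are descriptions, because the members were picked with hairpin results known, and the hairpins of a line share its shCtrl arrays. The mean hairpin difference in MIA PaCa-2 minus that in Capan-1 was below 0 for MMP1, MMP10, both MMP7 probes and TIMP2 probe 780270, which are the 5 of 8 past the threshold for that contrast, beside 14.4% (7.24% higher, 7.11% lower).

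**Figure D4:**
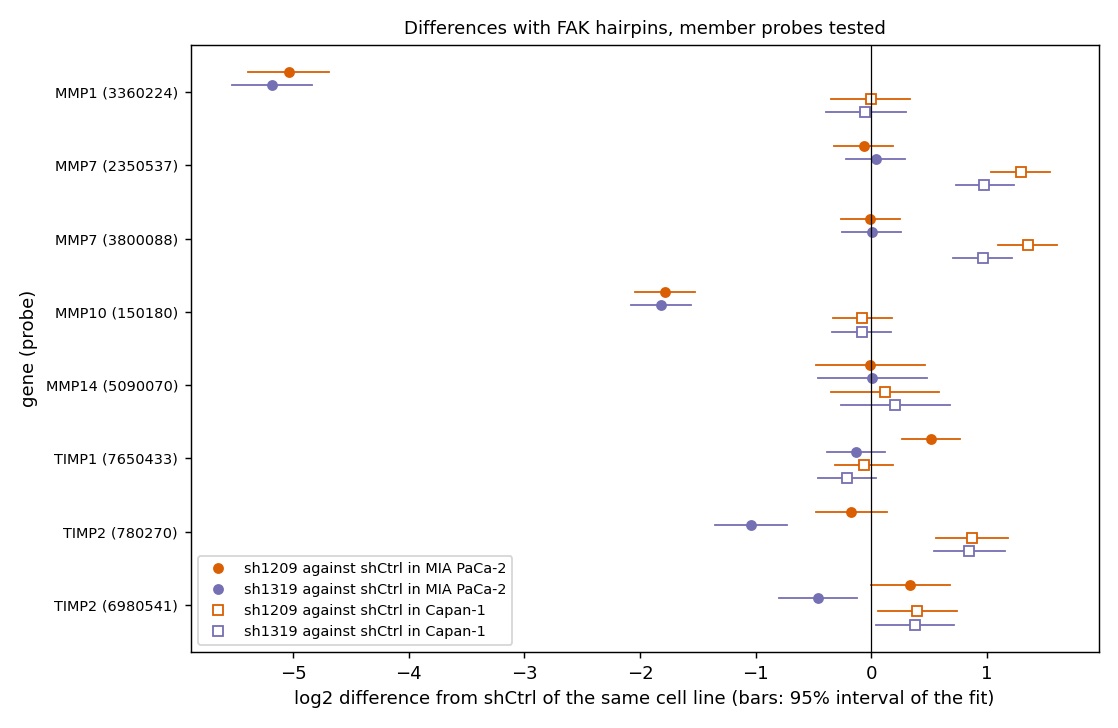
Log2 difference from shCtrl of the same cell line (horizontal axis) with its 95% interval (bars) for the 8 tested member probes, with sh1209 in orange and sh1319 in purple, MIA PaCa-2 as filled circles and Capan-1 as open squares. MMP1 and MMP10 lie left of 0 in MIA PaCa-2 only, MMP7 right of 0 in Capan-1 only, and TIMP2 probe 780270 right of 0 in Capan-1 and, with sh1319, left of 0 in MIA PaCa-2.

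The cell lines were compared with shCtrl alone, so that no FAK hairpin enters. Of the 8 probes, 7 differed, against 42.1% of all tested probes (22.5% higher in MIA PaCa-2, 19.6% lower): MMP1, MMP10, TIMP1 and both TIMP2 probes were higher in MIA PaCa-2 and both MMP7 probes were lower. MMP7 was at least 49.7-fold lower in MIA PaCa-2 on probe 2350537 and at least 61.8-fold lower on probe 3800088. MMP10 was at least 2.66-fold and MMP1 at least 30-fold higher. These bounds are given with no p, because the MMP1 signal with shCtrl in MIA PaCa-2 is part of the known fall. MMP10 entered the fit only through those 2 arrays, and MMP7 only through Capan-1 arrays, so the count of 7 is a description.

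TIMP1 and TIMP2 were detected in both lines, apart from 1 Capan-1 shCtrl array on TIMP2 probe 6980541. TIMP1 was 2.03-fold higher in MIA PaCa-2 (log2 difference 1.02, SE 0.11, limma, adjusted p = 1.6e-05). TIMP2 was 7.11-fold higher on probe 780270 (2.83, SE 0.14, adjusted p = 1.3e-08) and 5.88-fold higher on probe 6980541 (2.56, SE 0.16, adjusted p = 7.3e-08). MMP14 did not differ beyond its spread, at -0.14 (interval -0.62 to 0.33, adjusted p = 0.64).

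The 2 FAK hairpins were compared with each other within each line. In MIA PaCa-2, 3 of 8 probes were higher with sh1209 than with sh1319, all of them TIMPs, against 22.6% of all tested probes (11.5% higher, 11.2% lower). TIMP1 was higher by 0.65 (SE 0.11, limma, adjusted p = 0.0014), TIMP2 by 0.87 on probe 780270 (SE 0.14, 8.8e-04) and by 0.80 on probe 6980541 (SE 0.16, 0.0028). The TIMP1 difference was 0.50 and lost its call under median scaling (adjusted p = 0.11, against 1.3e-06 to 0.11 over its alternatives). For MMP1 the hairpins differed by 0.15 (interval -0.20 to 0.49, adjusted p = 0.60) and for MMP10 by 0.04 (-0.22 to 0.30, adjusted p = 0.87), on signals at background.

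In Capan-1, 0 of 8 probes passed in the comparison of the hairpins by limma, against 11.3% of all tested probes (5.81% higher, 5.47% lower). MMP7 was nearest, higher with sh1209 by 0.39 on probe 3800088 (SE 0.12, interval 0.13 to 0.64, adjusted p = 0.053) and by 0.32 on probe 2350537 (interval 0.06 to 0.57, adjusted p = 0.12), and these are the 2 probes at an unadjusted p under 0.05. The TIMP2 difference was 0.02 (interval -0.29 to 0.33, adjusted p = 0.96) on probe 780270. TIMP1 differed by 0.15 (interval -0.10 to 0.40, adjusted p = 0.52).

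Other genes that act with the members were counted from 6 lists. The lists too were chosen with earlier results of these data known, and genes were named by their largest called differences. Their p-values and counts are therefore descriptions of these arrays and not independent tests. Over all tested probes, MIA PaCa-2 had 18% called for sh1209 and 24.3% for sh1319, while Capan-1 had 16.8% and 13.7%. MMPs outside the members and TIMP4 had 10 tested probes of 7 genes. Of these probes 0%, 20%, 20% and 10% were called, in the order of the shares just given. None passed with sh1209 in MIA PaCa-2. With sh1319 in that line an MMP23B probe, not detected with shCtrl, was at least 1.38-fold higher, and MMP3 was lower, as given above. That MMP23B probe is given with no p, since it was detected on FAK hairpin arrays alone. Its call was lost without sh1319 replicate 2 and under median scaling. In Capan-1 MMP28 (epilysin) fell by 1.37 with sh1209 (SE 0.12, limma, adjusted p = 2.4e-05, another probe at -0.71). TIMP4 rose by 0.77 with sh1319 (SE 0.13, adjusted p = 0.0023). The medians lay between -0.06 and 0.14, beside -0.01 to 0.01 over all probes.

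Activators and binding partners had more rises than falls among their calls. The list holds the plasminogen activator system, cathepsins and proprotein convertases that take part in the activation of proenzymes. Of 26 tested probes, 8 were higher and 1 lower with sh1209 in MIA PaCa-2 (34.6% called), 9 and 1 with sh1319 (38.5%), 13 and 2 with sh1209 in Capan-1 (57.7%), and 5 and 1 with sh1319 (23.1%). These probes cover 13 genes, several with more than 1 probe. Counted by gene, 5, 6, 6 and 4 were higher and 1 was lower in each comparison, in the same order. The medians were 0.17, 0.18, 0.53 and 0.13. CTSL1, which encodes cathepsin L, rose by 1.08 with sh1209 (SE 0.13, adjusted p = 1.9e-04) and by 1.37 with sh1319 (another probe, SE 0.11, 2.8e-06) in MIA PaCa-2. PCSK6, a proprotein convertase, rose by 1.64 (SE 0.11, 2.8e-06) and 0.77 (SE 0.11, 0.0012) in Capan-1, and PLAUR, the urokinase receptor, by 1.19 with sh1209 (SE 0.19, 0.0015). CAV1, the caveolin that marks membrane caveolae, rose by 1.63 (SE 0.13, 8.0e-06) and 2.94 (SE 0.13, 5.1e-08) in MIA PaCa-2 and fell by 1.18 with sh1209 in Capan-1 (SE 0.13, 1.3e-04). PLAT, the tissue plasminogen activator, was undetected on the shCtrl arrays of MIA PaCa-2 and was at least 1.59-fold higher with sh1209 (2.3e-04). The integrin chain ITGAV rose by 1.18 with sh1319 (SE 0.21, 0.0013). The other falls, named after their values were seen, were of ITGAV with sh1209 in MIA PaCa-2 and of a CD44 probe with sh1319 in each line.

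Other inhibitors had 8 tested probes of 7 genes, and SERPINE2 (protease nexin 1), an inhibitor of thrombin, plasmin and plasminogen activators, led them. It fell in all 4 comparisons, with log2 differences of -3.33 (SE 0.13, limma, adjusted p = 1.7e-08) and -3.56 (SE 0.13, 7.3e-09) in MIA PaCa-2 and of -0.93 (SE 0.13, 5.5e-04) and -0.68 (SE 0.13, 0.0048) in Capan-1, the last not past the threshold under median scaling. CST3, the cathepsin inhibitor cystatin C, rose by 0.41 with sh1209 in MIA PaCa-2 (adjusted p = 0.022) and by 0.65 (0.0019) and 0.39 (0.035) in Capan-1. SERPINB2, a plasminogen activator inhibitor that was not detected with shCtrl in Capan-1, was higher with sh1209, at least 1.19-fold, and with sh1319, at least 1.26-fold. It is given with no p, since this probe was detected on the FAK hairpin arrays of Capan-1 alone. The CST3 calls with sh1209 in MIA PaCa-2 and with sh1319 in Capan-1 were lost without any 1 array of the groups compared, and those of SERPINB2 without Capan-1 shCtrl replicate 1, among others. These were all the calls, and the list medians lay between -0.07 and 0.11.

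AP-1 and ETS factors had 19 tested probes of 15 genes. With sh1209 in MIA PaCa-2, 3 were higher and 2 lower (26.3% called), with sh1319 3 and 4 (36.8%), with sh1209 in Capan-1 6 and 1 (36.8%), and with sh1319 4 and 3 (36.8%). The AP-1 subunit FOSL1 (Fra-1) fell in all 4 comparisons, with log2 differences of -1.06 (SE 0.15, limma, adjusted p = 4.8e-04) and -2.51 (SE 0.15, 3.8e-07) in MIA PaCa-2 and of -0.52 (SE 0.15, 0.035) and -0.86 (SE 0.15, 0.003) in Capan-1. Under median scaling the FOSL1 call with sh1209 in Capan-1 was lost. In MIA PaCa-2 JUN rose by 1.72 and 1.54 (SE 0.12, 2.6e-06 and 4.0e-06) and JUND by 1.44 and 2.20 (SE 0.11, 3.8e-06 and 8.4e-08). In Capan-1 JUN rose by 2.51 and 1.31 (SE 0.12, 1.3e-07 and 6.9e-05), FOSB by 2.31 and 0.88 (SE 0.11, 7.5e-08 and 3.5e-04), and JUND by 1.10 with sh1209 (SE 0.11, 4.2e-05). A RUNX2 probe, detected on FAK hairpin arrays alone and so given with no p, was at least 1.96-fold higher there with sh1319. AP-1 is a dimer of JUN and FOS family proteins, and its subunits did not move one way in either line. The list medians lay between -0.05 and 0.21.

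ADAM and ADAMTS metalloproteinases, some of which TIMP3 inhibits, had 18 tested probes and few calls, all of them rises. They were ADAM9 with sh1209 in MIA PaCa-2 (0.57, SE 0.15, limma, adjusted p = 0.02), ADAM10 (0.81, SE 0.19, 0.0086) and ADAM19 (at least 1.11-fold, with no p since it was detected on the 2 arrays of that group alone) with sh1319, ADAM8 (0.82, SE 0.16, 0.0051) and ADAM10 (0.65, SE 0.19, 0.037) with sh1209 in Capan-1, and ADAM8 with sh1319 (0.69, SE 0.16, 0.016). The shares called, 5.56% to 11.1%, were below those of all probes in each comparison, and the call of each gene was lost without at least 1 array of the groups compared.

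Matrix substrates of MMPs had 18 tested probes of 13 genes, and every call was a rise: in MIA PaCa-2 there were 6 with sh1209 and 7 with sh1319 (33.3% and 38.9% called), and in Capan-1 2 and 1 (11.1% and 5.56%). In MIA PaCa-2 the fibrillar collagen genes COL1A2 and COL3A1 led, with COL1A2 up by 2.97 (SE 0.11, limma, adjusted p = 1.6e-08) and 4.31 (SE 0.11, 7.1e-10). Other fibrillar collagen genes of the list, named after their values were seen, did not share this rise. In MIA PaCa-2 COL1A1 was dim and not tested, with means of 4.50 with shCtrl, 4.37 with sh1209 and 4.48 with sh1319. COL5A1 had means of 4.74, 5.03 and 4.73 in the same order. COL3A1, undetected there on both shCtrl arrays, was higher with either hairpin, at least 8.26-fold for sh1209 and, for sh1319, at least 6.78-fold. No p is given for COL3A1, since it was detected on the FAK hairpin arrays of MIA PaCa-2 alone. COL17A1, a transmembrane collagen, rose by 2.39 and 2.11 (SE 0.18, 3.2e-06 and 5.5e-06). The fibroblast markers FAP and PDGFRB were undetected in the MIA PaCa-2 samples, where ACTA2 rose along with COL1A2, COL3A1 and COL17A1, as given above. In Capan-1 the rises were in laminin chains of epithelial basement membranes, with LAMB3 up by 1.26 and 0.55 (SE 0.15, 2.2e-04 and 0.035) and LAMA3 by 1.07 with sh1209 (SE 0.19, 0.0029). The LAMB3 call with sh1319 was lost without either shCtrl array or without sh1319 replicate 2, with values between 0.33 and 0.79. The list medians were 0.12, 0.16, 0.08 and 0.03.

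**Figure D5:**
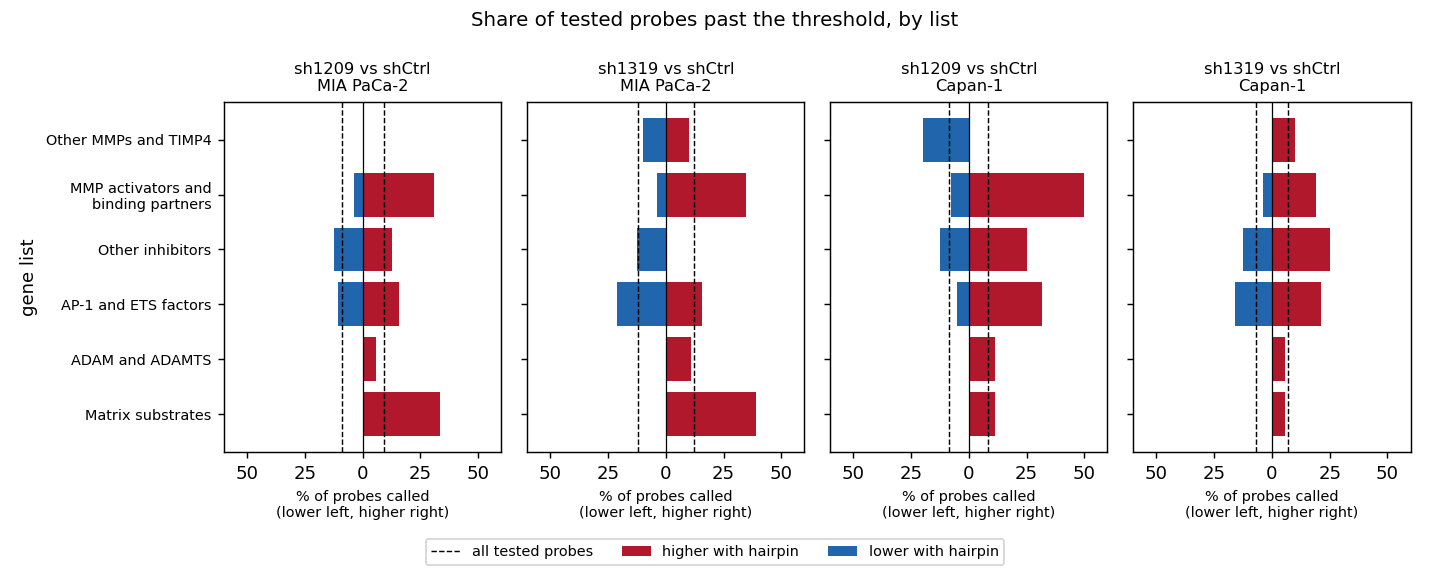
Percent of the tested probes of each gene list past the threshold, lower to the left (blue) and higher to the right (red), for each FAK hairpin against shCtrl in each line. Dashed lines give the same share over all 24207 tested probes. The matrix substrates show rises and no falls in all 4 comparisons, and the activators reach 50% higher with sh1209 in Capan-1.

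Among all tested probes of other genes, those with the pattern most like each of 4 members were ranked by Pearson's r over the 12 arrays, which share libraries with the members and are dominated by the cell line difference. MMP1 was followed by SFRP1 (r = 0.998), TNFSF4 (0.996) and HAPLN1 (0.995), whose means in MIA PaCa-2 with shCtrl were 7.06, 7.86 and 8.33 and in every other group between 4.23 and 4.45. Within MIA PaCa-2 their r was 0.996 to 0.998. Within Capan-1, where MMP1 was undetected, r was 0.719, -0.0982 and 0.0601. MMP7 was followed by GSDMD (r = 1.00), LYPD2 (0.999) and VCAM1 (0.999), with r of 0.977 to 0.984 within the 6 Capan-1 arrays. Within MIA PaCa-2, where MMP7 was undetected, r was 0.0295, -0.239 and 0.889. TIMP2 was followed by PLD6 (0.985), PMPCB (0.978) and DHRS4 (0.976), with r of 0.873 to 0.948 within Capan-1 and 0.796 to 0.987 within MIA PaCa-2. TIMP1 was followed by LOC100134209 (0.993), MRPS30 (0.991) and LTV1 (0.990), with r of 0.975 to 0.997 within MIA PaCa-2 and 0.368 to 0.817 within Capan-1.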

How the data were processed

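RNA from 12 samples in 6 groups of cell line by hairpin (500 ng each) was hybridised to Illumina HT12 arrays of 1 chip. The authors deposited each probe's intensity, on a linear scale and without normalization, and its detection p-value; GenomeStudio 2011.1 is named in the submitters' processing notes. Of 47320 rows, 92 control rows were left out, and 28 columns were empty.

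Background was corrected with limma's nec (normexp from detection p-values, offset 16, which understates changes of dim probes) and log2 values were quantile-normalized between arrays. The 24207 probes detected at p under 0.05 on at least 2 arrays were fitted with limma 3.58.1 (lmFit, eBayes; R 4.3.3) as 6 group means (6 residual degrees of freedom). Benjamini-Hochberg adjustment was done over all probes, separately for each comparison. In simulated data with 200 of 24207 probes changed by 1.5 (log2), 82.0% to 95.5% were recovered over the 8 comparisons, with 4.08% to 7.46% false calls.

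The members and the gene and marker lists were chosen with earlier results of these data known. Named were every member and PTK2 probe, up to 3 genes with the largest called difference per list and comparison, and the 3 probes most like each of the 4 members that varied most. A gene of the matrix substrate list is not reported here and was left out of that list's counts. Sequences are RefSeq's (GRCh38.p14). Alternatives were no background correction, median scaling, no or a stricter filter (detection p under 0.01), a replicate block, array weights, only the groups compared, each array left out, and the methods' t-test.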

Additional observations from a re-analysis of the deposited data

Results flagged for a closer look

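The response to FAK hairpins was set between the cell lines by the interaction term of the limma fit, the mean hairpin difference in MIA PaCa-2 minus that in Capan-1, on the log2 scale. Among members, whose values are a description, it was -5.09 for MMP1, -1.72 for MMP10, -1.15 and -1.16 for the MMP7 probes 2350537 and 3800088, and -1.47 for TIMP2 probe 780270. For MMP1 and MMP10 the difference came from MIA PaCa-2, since both were at background on every Capan-1 array, and for MMP7 from Capan-1, since it was undetected on every MIA PaCa-2 array. Of these members TIMP2 was the one detected in both lines, on probe 780270 lower with sh1319 in MIA PaCa-2 and higher with both hairpins in Capan-1. The term was -0.45 on TIMP2 probe 6980541 and 0.33 for TIMP1, also detected in both lines, and neither passed the threshold. For the targeted gene PTK2 the term was -1.17 on probe 450253 (limma, adjusted p = 2.1e-04). On the dim PTK2 probe 2680750 it had the opposite sign, 0.47, and did not pass (adjusted p = 0.15).

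Among the 30 list probes named in a hairpin comparison, likewise a description, 17 passed the threshold for this term, 9 with a term above 0 and 8 below. The term was above 0 for COL1A2 (3.58), COL3A1 (3.11), CAV1 (2.98), COL17A1 (2.26), JUND (0.89), ADAM9 (0.78), 2 CTSL1 probes (0.66 and 0.57) and MMP28 (0.58). It was below 0 for SERPINE2 (-2.64), FOSB (-1.75), PCSK6 (-1.21), FOSL1 (-1.10), LAMB3 (-0.97), PLAUR (-0.79), ADAM8 (-0.68) and SERPINB2 (-0.61). The calls of MMP28, both CTSL1 probes, ADAM9, PLAUR, ADAM8 and SERPINB2 were lost in between 2 and 15 of 18 alternatives.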

How the results depend on the processing

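No member difference past the threshold changed sign under the alternatives run; some that were not past it did, such as MMP14 in Capan-1. Without 1 array each, the number of member probes past the threshold ranged from 2 to 3 with sh1209 and from 3 to 4 with sh1319 in MIA PaCa-2, stayed at 3 for both hairpins in Capan-1 and for the hairpins in MIA PaCa-2, at 0 for the hairpins in Capan-1, at 7 for the cell lines and at 5 for the interaction. The methods' t-test called 0 member probes after Benjamini-Hochberg adjustment for the 4 hairpin comparisons and for the hairpins in MIA PaCa-2. For the hairpins in Capan-1, where limma called 0, there were 2 without background correction, and 1 each without a filter, with the stricter filter, with array weights and by the methods' t-test unadjusted. The samples share only a replicate number (correlations of deviations -0.0611 to 0.16), and with the replicate block the member counts were 3, 4, 3, 3, 3, 0, 7 and 5, as without it, in the order of comparisons in the report with the interaction last. The methods' t-test and the fit of only the groups compared were not run for the interaction.

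Median scaling moved the median of all probes by up to 0.11 (log2) and gave 2243, 3846, 2459 and 2270 calls over all probes in the 4 hairpin comparisons, 1142, 2562, 2009 and 1936 of them higher, against 4365, 5887, 4074 and 3322, of which 2190, 2964, 1971 and 1682. For sh1209 against sh1319 it gave 3477 in MIA PaCa-2 (1206 higher) and 1217 in Capan-1 (690), against 5478 (2773) and 2730 (1407), for the interaction 1834 (581) against 3475 (1753), and for the cell lines 7761 (3488) against 10187 (5437). After adjustment the methods' t-test called 1, 4, 0 and 0 of all probes in the 4 hairpin comparisons. Values near background depend most on the correction: without it the cell line difference was 3.15 for MMP1, 0.61 for MMP10, and -3.97 and -4.35 for the MMP7 probes. With 2 arrays a group, small differences of dim probes were not detectable; the cause of the changes listed here was not tested.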
